A study of Mus musculus with 6 samples.

Results

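The proteasome is the barrel-shaped protease that degrades ubiquitin-tagged proteins, and its subunits are encoded by genes whose symbols start with Psm. The genes described here are the rows of the count table whose symbol starts with Psma, Psmb, Psmc, Psmd, Psme, Psmf or Psmg, without symbols that contain "-ps". This rule found 51 genes among 49997 rows, and it used no measured value. RNA had been sequenced from small pre-B cells, precursors that rearrange their immunoglobulin light chain genes, which were sorted from the bone marrow of C57BL/6 mice aged 6 to 12 weeks. The 2 groups were wild-type (WT) mice and mice of the ΔrsCBE genotype, with 3 libraries each. No treatment is named for either group, and the labels do not give the interval that is deleted in ΔrsCBE or say whether a library came from 1 animal or from a pool. P-values therefore measure only the spread between these libraries, which may be partly or, in WT, wholly technical. Within ΔrsCBE the sex pattern given below differs, so its libraries did not all come from the same animals.

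The core of the proteasome, the 20S particle, is a stack of rings. The outer alpha rings (Psma genes) gate the entrance, and the inner beta rings (Psmb genes) hold the proteolytic sites. Standard particles cut with the subunits encoded by Psmb5, Psmb6 and Psmb7. In lymphoid cells and after interferon-γ these can be replaced by Psmb8, Psmb9 and Psmb10, which gives the immunoproteasome and favours peptides that fit major histocompatibility complex class I. The 19S cap recognises and unfolds substrates: its base contains the ATPases (Psmc genes) and its lid the deubiquitinating subunit Psmd14. Psme genes encode alternative activators, Psmf1 an inhibitor, and Psmg genes and some Psmd genes encode assembly chaperones.

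Total counts per library ranged from 428106 to 1300805, and the 51 genes took between 0.270% and 0.290% of them, or 1161 to 3574 counts. Levels are given as CPM, counts relative to 1e6 of the library's counts in the genes that passed the filter on low counts given below. They are scaled by TMM factors (a correction for composition, here between 0.978 and 1.02). The floor used here, 3 counts, corresponds to 2.38 to 7.36 CPM depending on the library. Counts of Xist, the RNA of the inactive X chromosome, were 1603 in ΔrsCBE replicate 2, 1430 in ΔrsCBE replicate 3 and 0 or 1 elsewhere, so the sex pattern differs partly with genotype. All 12 genes of a pre-B marker list (among them Cd79a, Rag1 and Pax5) passed the count filter, with summed levels of 12610 to 14840 CPM in WT and 13590 to 14260 CPM in ΔrsCBE. Of 8 erythroid markers 7 are listed at 0 in every library, as are 8 of 10 T and NK cell markers. The 10 myeloid markers summed to between 53.9 and 85.8 CPM, with S100a8, Elane and Ly6c2 at 0. Markers of other B-lineage stages were present. The 10 mature B markers summed to between 593 and 897.5 CPM and the 6 plasma cell markers to between 1171 and 1503 CPM. The 7 markers of pro-B and large pre-B cells summed to between 20.6 and 46.6 CPM.

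Whether the genotype changed these genes was tested by edgeR (quasi-likelihood), with Benjamini-Hochberg adjustment across the 7792 genes that passed the filter on low counts. No proteasome gene passed the test. Of the 51 genes, 38 passed the filter and 0 of these 38 had an adjusted p-value under 0.05. Over all tested genes this share was 1.69%, so a count of 0 in a set of this size is near the background. The smallest adjusted p-value of a proteasome gene was 0.254 (edgeR), that of Psmd14. An unadjusted p-value under 0.05 was reached by 2 of the 38, both lower in ΔrsCBE, against 10.2% of all tested genes in either direction and 6.02% lower, and DESeq2's Wald test gave 0 calls and likewise 2 genes at an unadjusted p-value under 0.05. The WT and ΔrsCBE ranges of CPM did not overlap for 4 of the 38, 3 lower and 1 higher in ΔrsCBE, against 16.1% of all tested genes (8.92% lower and 7.23% higher).

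The estimates, by which is meant here the log2 fold changes of ΔrsCBE over WT fitted by edgeR, lay from -0.65 (Psma2) to 0.78 (Psmd10), with 22 above and 16 below 0. Their median was 0.07, beside 0.01 for all tested genes, and the median of their absolute values was 0.18, beside 0.18 for all tested genes. A p-value above the threshold does not show equal expression, so the 95% intervals matter. For 32 of the 38 genes the interval excluded a 2-fold change in either direction (a log2 fold change of 1 or -1), and its half-width was 0.45 in the median and 0.21 to 1.02 over the genes. The 6 genes for which a 2-fold change was not excluded were Psma2, Psma7, Psmb9, Psmd9, Psmd10 and Psmd14.

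**Figure D1:**
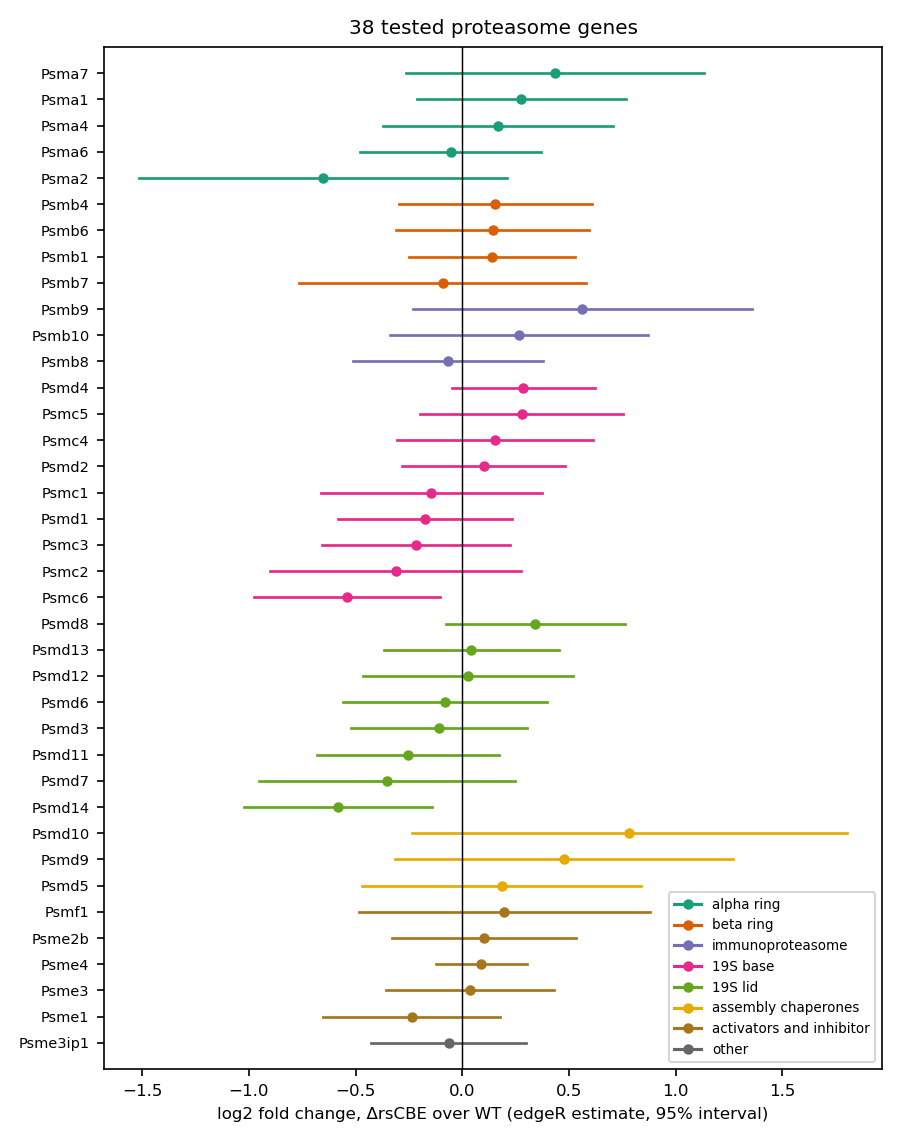
Log2 fold change of ΔrsCBE over WT (x axis) for the 38 proteasome genes that passed the count filter, with points for edgeR estimates and lines for 95% intervals (not adjusted for the number of genes), coloured by class. All intervals cross 0 except those of Psmc6 and Psmd14, whose adjusted p-values were 0.307 and 0.254 by edgeR's quasi-likelihood test.

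Counts were found for the catalytic subunits of both forms, though Psmb5 had only 32 over the 6 libraries and was below the count filter. The start regions of 3 of their genes are printed here because they set the standard subunit Psmb5 beside its replacement Psmb8, and because the region of Psmb9 is shared with another measured gene. Each sequence runs from 250 bases before to 50 bases after the RefSeq start on GRCm38.p6. Of the 51 genes, 43 had such a window. Capitals mark matches, on either strand, to 6 motifs: TGACNNNGC and TGAGNNNGC (forms of the antioxidant response element, to which the proteasome regulator Nfe2l1 binds), the interferon-stimulated response element, TTCNNNGAA (gamma-activated site of STAT factors), the CCAAT box and CCGGAAG (ETS factors).
Psmb5, chr14:54617946-54618245, minus strand: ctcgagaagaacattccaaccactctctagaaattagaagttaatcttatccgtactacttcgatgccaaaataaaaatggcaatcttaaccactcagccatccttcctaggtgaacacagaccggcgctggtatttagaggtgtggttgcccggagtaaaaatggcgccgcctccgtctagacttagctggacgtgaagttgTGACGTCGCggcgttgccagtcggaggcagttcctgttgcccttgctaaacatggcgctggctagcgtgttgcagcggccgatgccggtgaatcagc
Psmb8, chr17:34197945-34198244, plus strand: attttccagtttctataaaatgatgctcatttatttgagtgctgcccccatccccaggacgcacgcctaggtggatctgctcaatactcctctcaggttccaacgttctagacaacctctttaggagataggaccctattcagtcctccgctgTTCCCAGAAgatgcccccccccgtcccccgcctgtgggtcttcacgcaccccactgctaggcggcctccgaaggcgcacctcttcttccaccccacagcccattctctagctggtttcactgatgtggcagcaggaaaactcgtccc
Psmb9, chr17:34187281-34187580, minus strand: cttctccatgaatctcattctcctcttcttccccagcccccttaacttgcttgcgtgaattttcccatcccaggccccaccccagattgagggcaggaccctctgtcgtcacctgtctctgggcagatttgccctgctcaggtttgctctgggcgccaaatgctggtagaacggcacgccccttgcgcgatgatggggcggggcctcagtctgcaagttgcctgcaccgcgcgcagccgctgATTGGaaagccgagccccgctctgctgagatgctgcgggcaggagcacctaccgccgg

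The Psmb5 window holds 1 antioxidant response element match, TGACGTCGC, 47 bases before the start. The Psmb8 window holds 1 gamma-activated site match, TTCCCAGAA, 97 bases before the RefSeq start. The Psmb8 and Psmb9 windows lie wholly inside the GENCODE spans of these genes given below, which begin further upstream. The Psmb9 window holds a CCAAT box on the opposite strand and none of the other 5 motifs. It shares 275 of its bases with the start window of Tap1, the peptide transporter subunit transcribed in the opposite direction. Among the 43 genes with a window, CCGGAAG occurred in 16 (37.2%), against 8.86% of all 32851 windows, and TGAGNNNGC in 13 (30.2%), against 17.7%. TGACNNNGC occurred in 6 genes (13.95%, against 12.4% of windows), the interferon-stimulated response element in 5 (11.6%, against 3.44%), TTCNNNGAA in 3 (6.98%, against 8.30%) and the CCAAT box in 16 (37.2%, against 37.4%). These shares are descriptions with no test, and a match is not evidence of binding. Genes with several start windows count once if any window matched, while the background is a share of single windows. The percentages of genes and of windows are therefore of unlike units, and the former can be raised by this.

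Psmb8, the source of the chymotrypsin-like subunit of the immunoproteasome (chromosome 17, 34197721 to 34201454, plus strand, GENCODE M21 on GRCm38), had 66.5, 53.9 and 55.4 CPM in WT and 69.0, 48.6 and 50.5 CPM in ΔrsCBE (here and below in the order of replicates 1, 2 and 3). The ranges overlapped throughout, with replicate 1 the highest library of each group. The estimate for it was -0.07 ± 0.22 (SE; 95% interval -0.51 to 0.38, adjusted p = 0.968 by edgeR).

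Psmb9, the caspase-like site's replacement (chromosome 17, 34181987 to 34187764 on the minus strand), had 13.0, 24.5 and 10.3 CPM in WT and 26.6, 20.7 and 15.2 CPM in ΔrsCBE. WT replicate 2 lay inside the ΔrsCBE range, and the other WT libraries lay below it. The edgeR estimate was 0.56 ± 0.39 (SE; 95% interval -0.23 to 1.36, adjusted p = 0.678 by edgeR). It overlaps Tap1 on the opposite strand, and if reads were not separated by strand the 2 genes' counts are uncertain there. Tap1 had 146, 223 and 135 CPM in WT and 157, 125 and 121 CPM in ΔrsCBE, which gave an estimate of -0.27 ± 0.18 (SE; adjusted p = 0.666 by edgeR).

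Psmb10, the replacement of the trypsin-like site (chromosome 8, 105935735 to 105938444 on the minus strand), had 27.6, 36.8 and 23.8 CPM in WT and 42.4, 25.8 and 32.8 CPM in ΔrsCBE. Each group spanned most of the other's range. The fitted estimate was 0.26 ± 0.29 (SE; 95% interval -0.34 to 0.87, adjusted p = 0.834 by edgeR).

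Of the standard catalytic subunits, Psmb6 (chromosome 11, 70525367 to 70527858 on the plus strand) had 55.2, 39.2 and 61.0 CPM in WT and 54.5, 53.7 and 72.0 CPM in ΔrsCBE, which gave an estimate of 0.14 ± 0.22 (SE; 95% interval -0.31 to 0.59, adjusted p = 0.897 by edgeR). Psmb7 (chromosome 2, 38588036 to 38644087 on the minus strand) had 26.0, 17.2 and 23.8 CPM in WT and 20.6, 26.9 and 16.4 CPM in ΔrsCBE, which gave an estimate of -0.09 ± 0.33 (SE; 95% interval -0.77 to 0.58, adjusted p = 0.972 by edgeR). In both genes the groups overlapped. Psmb5 (chromosome 14, 54614119 to 54618022 on the minus strand) was below the count filter, with 32 counts over the 6 libraries: 3.25, 7.36 and 7.13 CPM in WT and 1.21, 9.30 and 10.1 CPM in ΔrsCBE. Several of these values are near the floor of 3 counts, and Psmb5 is also 1 of the genes with close copies elsewhere in the genome, described further on.

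**Figure D2:**
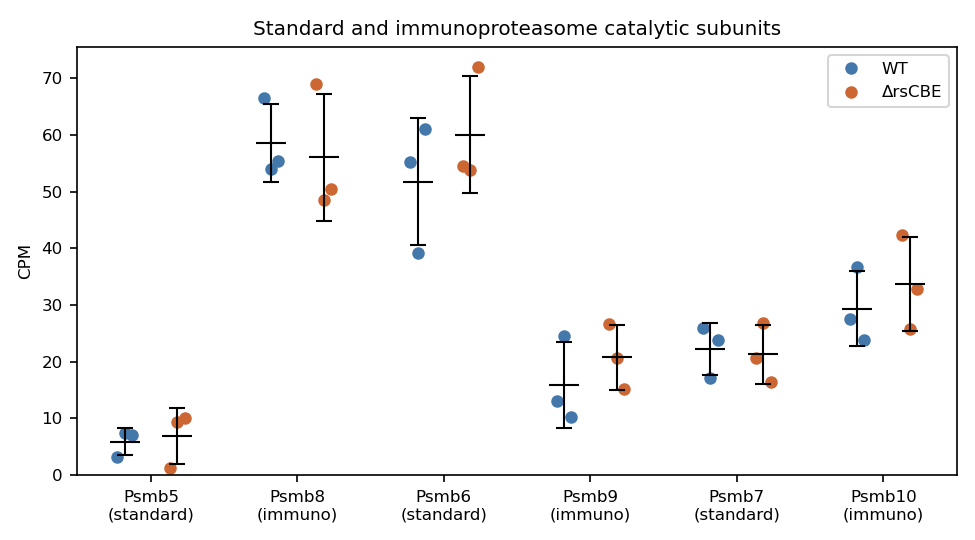
CPM (y axis) of the standard catalytic subunits and their immunoproteasome counterparts, 1 point per library, with the mean and SD of 3 libraries in black, in WT (blue) and ΔrsCBE (orange). Heights of different genes also reflect gene length, and the WT and ΔrsCBE points overlap for each of the 6 genes.

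The balance between the forms was compared between the groups by the log2 ratio of the replacing to the replaced subunit's counts in each library, with a prior count of 2. The counts were not divided by exon length (3.38 kb for Psmb8 and 0.899 kb for Psmb5). The value of a ratio therefore also reflects length, and only differences between the groups are read from it. For Psmb9 over Psmb6 the ratio was -1.90, -0.63 and -2.31 in WT and -0.97, -1.28 and -2.08 in ΔrsCBE, a difference of 0.17 between means of -1.61 ± 0.88 and -1.44 ± 0.57 (SD, n = 3; exact permutation p-value 0.9). For Psmb10 over Psmb7 it was 0.08, 1.00 and 0.00 in WT and 0.96, -0.05 and 0.90 in ΔrsCBE, a difference of 0.24 between 0.36 ± 0.56 and 0.60 ± 0.57 (exact permutation p-value 1). For Psmb8 over Psmb5 it was 3.595, 2.52 and 2.59 in WT and 4.28, 2.12 and 2.08 in ΔrsCBE, a difference of -0.08 between 2.90 ± 0.60 and 2.83 ± 1.26 (exact permutation p-value 1). All 3 p-values were 1 after Benjamini-Hochberg adjustment over the 3 pairs, the test was two-sided, and the smallest p-value possible with 3 libraries in each group is 0.1. With 3 libraries in each group this permutation test therefore could not call a shift of any size, and the values are given as a description. In each pair the libraries of each group spanned about 1 log2 unit or more. The difference for Psmb8 over Psmb5 was 0.02 with a prior count of 0.5.

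Levels of different genes can be set side by side only per length, as CPM per kb of annotated exon. In WT, Psmb8 and Psmb10 had 17.3 ± 2.03 and 17.2 ± 3.93 CPM per kb and Psmb9 had 4.35 ± 2.07 (SD, n = 3). The standard subunits Psmb5, Psmb6 and Psmb7 had 6.57 ± 2.57, 27.7 ± 6.01 and 6.52 ± 1.34 CPM per kb. In ΔrsCBE the levels were 16.6 ± 3.33, 19.8 ± 4.87 and 5.69 ± 1.57 CPM per kb for Psmb8, Psmb10 and Psmb9 against 7.64 ± 5.47, 6.22 ± 1.54 and 32.1 ± 5.52 for their standard counterparts Psmb5, Psmb7 and Psmb6. The annotated exon length includes exons of minor transcripts, and Psmb5 has close copies elsewhere, so these levels are approximate and no order between the subunits of a pair is read from them.

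Among the other subunits of the 20S core, 5 of 8 alpha ring genes and 4 of 8 beta ring genes (Psmb6 and Psmb7 included) were tested. Their log2 fold changes lay from -0.65 to 0.43 in the alpha ring and from -0.09 to 0.16 in the beta ring, with medians of 0.17 and 0.14, and 0 of the 9 were past the threshold. Psma6 had the highest level per length of all tested 20S and 19S subunits, 57.1 ± 14.3 CPM per kb in WT. It had 90.9, 58.9 and 61.8 CPM in WT and 66.6, 61.0 and 75.8 CPM in ΔrsCBE. The groups overlapped, with an estimate of -0.05 ± 0.21 (SE; adjusted p = 0.972 by edgeR).

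Psma7 and Psma2 marked the ends of the alpha ring's range. Psma7 had 19.5, 14.7 and 15.1 CPM in WT and 19.4, 21.7 and 25.3 CPM in ΔrsCBE, which gave an estimate of 0.43 ± 0.34 (SE; adjusted p = 0.748 by edgeR). Psma2 had 16.2, 22.1 and 16.6 CPM in WT and 16.9, 11.4 and 5.05 CPM in ΔrsCBE, which gave an estimate of -0.65 ± 0.42 (SE; adjusted p = 0.651 by edgeR). The Psma2 estimate was -0.06 with sex as a covariate, and between -1.05 and -0.34 with 1 library left out, at the extremes ΔrsCBE replicates 1 and 3. The Psma2 value of ΔrsCBE replicate 3 is 4 counts, and ΔrsCBE replicate 1 lay above 2 of the WT libraries. In the beta ring, Psmb4 had 50.3, 61.3 and 61.0 CPM in WT and 64.2, 48.6 and 82.1 CPM in ΔrsCBE, which gave an estimate of 0.16 ± 0.22 (SE). Psma1, Psma4 and Psmb1 had log2 fold changes of 0.28, 0.17 and 0.14.

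All 17 genes of the 19S cap passed the count filter, and they held each of the 4 genes whose groups did not overlap. Over all tested genes the share without overlap was 16.1% (8.92% lower and 7.23% higher). In a set of 17 genes, 3 lower and 1 higher is near that background. Of the 9 base genes 4 were above and 5 below 0, with -0.14 as the median estimate, and of the 8 lid genes 3 were above and 5 below, with a median of -0.09. Psmd14, the lid subunit that removes ubiquitin chains from substrates (chromosome 2, 61711694 to 61800376 on the plus strand), had 60.0, 61.3 and 63.4 CPM in WT and 37.5, 45.5 and 40.4 CPM in ΔrsCBE. The WT libraries lay within 4 CPM of each other and above all ΔrsCBE libraries. Its estimate was -0.58 ± 0.21 (SE; 95% interval -1.02 to -0.14, unadjusted p-value 0.0117, adjusted p = 0.254 by edgeR).

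Psmc6, an ATPase of the base (chromosome 14, 45329788 to 45349705 on the plus strand), had 76.3, 76.0 and 73.7 CPM in WT and 59.3, 57.9 and 36.6 CPM in ΔrsCBE. Here too each ΔrsCBE library lay below each WT library, and ΔrsCBE replicate 3 was the lowest. The estimate here was -0.54 ± 0.21 (SE; 95% interval -0.97 to -0.10, unadjusted p-value 0.0173, adjusted p = 0.307 by edgeR). For Psmc6 it was -0.34 with sex as a covariate. With 1 library left out it lay between -0.65 and -0.36, the latter without ΔrsCBE replicate 3. The third gene with lower, non-overlapping ΔrsCBE values was the lid gene Psmd3, where the gap was small: 66.5, 61.3 and 58.6 CPM in WT against 56.9, 57.9 and 56.8 CPM in ΔrsCBE, which gave an estimate of -0.11 ± 0.20 (SE; adjusted p = 0.922 by edgeR). Psmd3 was named after its values were seen.

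Psmd4, a ubiquitin receptor of the base, was the 1 tested proteasome gene with higher, non-overlapping values. It had 102, 101 and 94.2 CPM in WT and 126, 109 and 126 CPM in ΔrsCBE, which gave an estimate of 0.29 ± 0.16 (SE; 95% interval -0.05 to 0.62, adjusted p = 0.597 by edgeR). Psmd8 of the lid had the highest estimate of its class, with 47.0, 61.3 and 81.6 CPM in WT and 89.6, 81.6 and 80.8 CPM in ΔrsCBE, which gave an estimate of 0.34 ± 0.20 (SE; adjusted p = 0.609 by edgeR). WT replicates 1 and 2 were low, and WT replicate 3 lay within the ΔrsCBE range. Psmc5, an ATPase with the highest level per length in the base (45.0 ± 16.9 CPM per kb in WT), had 89.2, 44.1 and 54.6 CPM in WT and 56.9, 88.9 and 82.1 CPM in ΔrsCBE, so its groups overlapped widely (estimate 0.28 ± 0.23, SE).

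The remaining cap genes lay between these. In the base, the ATPase genes Psmc1, Psmc2, Psmc3 and Psmc4 had log2 fold changes of -0.14, -0.31, -0.22 and 0.15, and the scaffold genes Psmd1 and Psmd2 had -0.18 and 0.10. In the lid, Psmd6, Psmd7, Psmd11, Psmd12 and Psmd13 had log2 fold changes of -0.08, -0.35, -0.25, 0.03 and 0.04. The lowest edgeR adjusted p-value among the cap genes other than Psmd14 and Psmc6 was 0.597.

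The highest levels per length of all tested proteasome genes were those of 3 activator genes, Psme1, Psme4 and Psme2b. Psme4, which encodes the large nuclear activator PA200, alone took 3016 counts, and had 565, 574 and 634 CPM in WT and 625, 651 and 615 CPM in ΔrsCBE. Psme4, named after its values were seen, had an estimate of 0.09 ± 0.10 (SE), and its 95% interval, -0.12 to 0.30, was the narrowest of the 38 tested proteasome genes. Psme1, the alpha subunit of the interferon-inducible activator PA28, had the highest level per length, 151 ± 39.6 CPM per kb in WT and 125 ± 31.5 in ΔrsCBE. It had 295, 434 and 272 CPM in WT and 207, 346 and 273 CPM in ΔrsCBE, with replicate 2 the highest library of each group. The resulting estimate was -0.24 ± 0.19 (SE; adjusted p = 0.765 by edgeR). Psme3, the nuclear PA28 gamma, and the inhibitor gene Psmf1 had log2 fold changes of 0.04 and 0.20. Psmf1 had 22.7, 19.6 and 18.2 CPM in WT and 29.1, 21.7 and 17.7 CPM in ΔrsCBE, with overlapping groups.

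Of the 7 assembly chaperones 3 were tested, at 2.55 to 6.62 CPM per kb in WT. Psmd10, an X-linked chaperone of the base also called gankyrin, had the highest estimate of the 38 tested genes, from 17.8, 7.36 and 3.96 CPM in WT to 13.3, 19.6 and 11.4 CPM in ΔrsCBE. WT replicate 1 lay within the ΔrsCBE range, and its 58 counts in all left an estimate of 0.78 ± 0.50 (SE; 95% interval -0.24 to 1.80, adjusted p = 0.644 by edgeR). The estimate depends on single libraries: it was 1.59 without WT replicate 1 and 0.16 without WT replicate 3. With sex as a covariate it was 0.62 (adjusted p = 0.814 by edgeR). Psmd5 had 27.6, 22.1 and 21.4 CPM in WT and 18.2, 30.0 and 31.6 CPM in ΔrsCBE, with a log2 fold change of 0.19. Psmd9 had 32.4, 2.45 and 20.6 CPM in WT and 25.4, 31.0 and 27.8 CPM in ΔrsCBE, which gave an estimate of 0.48 ± 0.38 (SE). The middle WT value is 1 count, and Psmd9 was named after its values were seen. Psmg1, Psmg2, Psmg3 and Psmg4 had 24, 19, 43 and 30 counts over the 6 libraries.

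The 13 genes below the filter were Psma3, Psma5, Psma8, Psmb2, Psmb3, Psmb5, Psmb11, Psmc3ip, Psme2 and the 4 Psmg genes. Psma8, which replaces an alpha subunit in testis, and Psmb11, the catalytic subunit of the thymus epithelium, are listed at 0 in every library. The other 11 had 12 to 49 counts over the 6 libraries. In a fit without the filter, 0 of these 11 had an unadjusted p-value under 0.05 by edgeR, and their smallest was 0.261 (Psmg2). At this depth no difference was detected in them, which does not show equal expression. The symbol rule also takes in Psmc3ip, a factor of meiotic recombination and no proteasome subunit, with 21 counts. Psme3ip1, whose product binds PA28 gamma, had 110, 90.7 and 94.2 CPM in WT and 111, 85.8 and 85.9 CPM in ΔrsCBE (log2 fold change -0.06).

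Several low values occurred in genes with close copies. Others occurred in subunits without any, such as Psmb9, Psma2 and Psma7 (4.35, 4.98 and 5.34 CPM per kb in WT). Copies were sought as transcripts of genes at other places that match the longest coding transcript at 95% identity or more over at least 100 bases. At least 50% of the transcript was matched in this way for 9 of the 51 genes, among them Psmd2 (98.2%), Psme2b (94.9%), Psmb5 (88.4%), Psme2 (82.5%), Psmc1 (82.0%), Psmb3 (80.7%) and Psma5 (76.5%). Psma5 had 12 counts in all, and its processed pseudogene Psma5-ps, which the symbol rule leaves out, had 55. Psme2, the beta subunit of PA28, had 22 counts, and its single-exon copy Psme2b had 289 (59.0 ± 6.99 CPM in WT and 61.3 ± 8.73 in ΔrsCBE), with Psme1, the partner of Psme2 in the PA28 ring, at 1425. Psmb5 had 32 counts and its copy Gm3375 had 16. Psmd2 had 359 counts and its copy Gm5422 had 131, and Psma4, matched over 66.9%, had 200 beside 127 for Gm6542. The level of each of these genes is uncertain, since reads that fit both places may have been dropped or given to either.

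Across the tested 20S and 19S subunits, which are assembled into 1 particle, WT levels per length spanned 4.35 to 57.1 CPM per kb, a 13.1-fold range over 29 genes. The 7 subunits with any count and at least 50% of the transcript matched elsewhere had a median of 9.76 CPM per kb in WT (1.83 to 20.6), and the 27 others a median of 17.2 (2.62 to 57.1). These figures are descriptions of genes within the same libraries and carry no test. Annotated neighbours add a further limit: 20 of the 51 genes overlap a gene on the opposite strand and 10 one on the same strand.

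**Figure D3:**
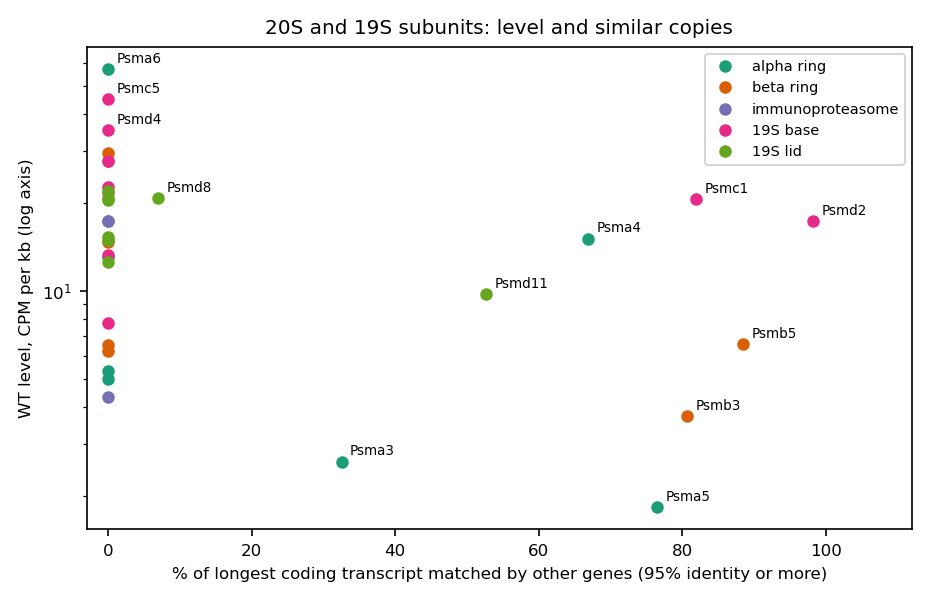
WT level in CPM per kb (y axis, log scale, mean of 3 libraries) of the 34 subunits of the 20S and 19S particles with any count, against the percentage of the longest coding transcript that other genes match at 95% identity or more (x axis). Psma5, Psmb3 and Psmb5 combine a match of over 75% with a level under 7 CPM per kb, while Psmc1 and Psmd2 have a similar match and lie near the median of the genes without copies. Psma2, Psma7, Psmb2, Psmb7 and Psmb9 have no match and also lie under 7 CPM per kb.

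Summed over each class, levels in the 2 genotypes overlapped for every class. The alpha ring summed to 192 ± 9.10 CPM in WT and 201 ± 6.56 in ΔrsCBE (SD, n = 3), the beta ring without the immunoproteasome to 221 ± 15.9 and 239 ± 27.2, and the immunoproteasome to 104 ± 13.2 and 111 ± 23.8. The base summed to 601 ± 26.7 and 590 ± 40.6 CPM, the lid to 451 ± 36.3 and 430 ± 20.1, the activators with Psmf1 to 1081 ± 77.9 and 1073 ± 97.7, and the assembly chaperones to 75.0 ± 32.4 and 93.3 ± 9.75. All 51 genes together had 2799, 2847 and 2830 CPM in WT and 2763, 2989 and 2758 CPM in ΔrsCBE, a ratio of means of 1.00. The WT libraries lay within the ΔrsCBE range. Fewer cells of a kind and less RNA per cell cannot be told apart in such bulk samples.

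Other gene lists did differ in these libraries. A list of 20 genes of cycling cells (Mki67, Top2a, Ccna2 and others), known from earlier results on these data to be lower, summed to 6691, 7440 and 7024 CPM in WT and 2964, 4560 and 2820 CPM in ΔrsCBE, and 13 of its 18 tested genes were past the threshold, all lower (1.49% of all tested genes were called lower). A list of 12 early-response genes (Fos, Jun and others) had likewise been seen to move in earlier results on these data. It summed to 3649, 3117 and 3304 CPM in WT and 6245, 4201 and 5802 in ΔrsCBE. Of its 10 tested genes 3 were called higher (0.205% of all tested genes were). Over the same libraries the summed proteasome level moved by less than the spread between replicates. The 10 heat shock genes summed to 440 to 490 CPM in WT and 464 to 667 in ΔrsCBE. Past the threshold were 0 of the 5 tested heat shock genes, against 1.69% of all tested genes.

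**Figure D4:**
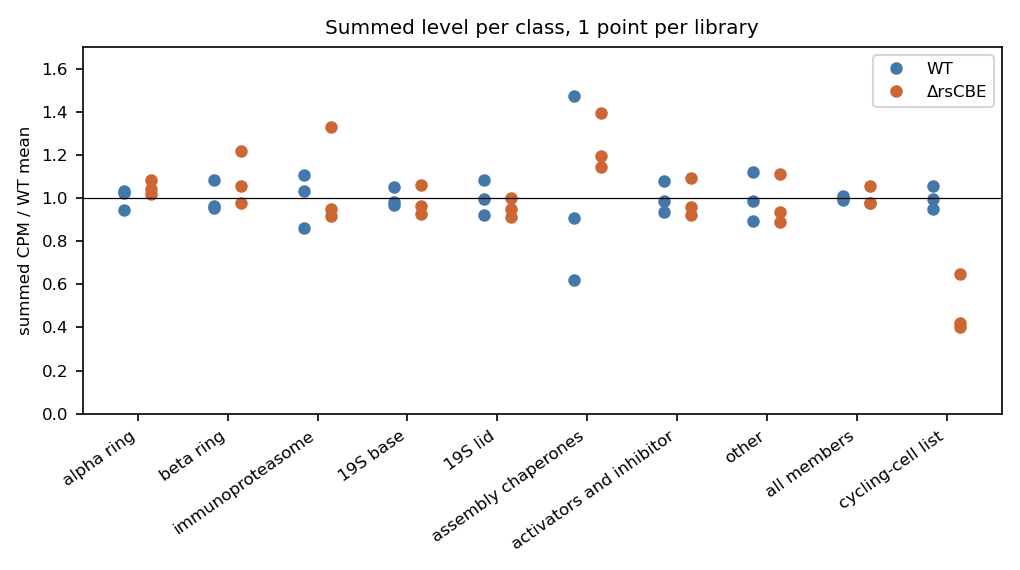
Summed CPM of each class of proteasome genes, of all 51 genes and of the cycling-cell list, divided by the WT mean (y axis), with 1 point per library in WT (blue) and ΔrsCBE (orange). WT and ΔrsCBE points overlap for every class of proteasome genes, and for the cycling-cell list all ΔrsCBE points lie below all WT points.

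Of 30 partner genes (subunits with other symbols, assembly and import factors, ubiquitin genes, shuttle receptors and transcription factors) 29 were found by symbol and 28 were tested, and 0 were past the threshold, with 12 above and 16 below 0, a median estimate of -0.07 and 3 at an unadjusted p-value under 0.05 (edgeR; DESeq2's Wald test also called 0). Over all tested genes these shares were 1.69% and 10.2%, so both counts are near the background. The highest estimate belonged to Uchl5, a deubiquitinase of the cap, with 6.49, 12.3 and 13.5 CPM in WT and 17.0, 20.7 and 15.2 CPM in ΔrsCBE (estimate 0.66 ± 0.40, SE). The groups did not overlap. The lowest belonged to the ubiquitin gene Ubb, with 71.4, 142 and 76.8 CPM in WT and 81.1, 54.8 and 46.7 CPM in ΔrsCBE (estimate -0.58 ± 0.25, SE, adjusted p = 0.381 by edgeR), where WT replicate 2 was high.

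The antigen processing list holds genes that work downstream of the immunoproteasome or induce it. All 13 were tested and 0 were past the threshold, with 5 above and 8 below 0, a median estimate of -0.06 and 1 at an unadjusted p-value under 0.05 (edgeR; DESeq2's Wald test also called 0). The shares over all tested genes, 1.69% and 10.2%, put both counts near the background. The 1 gene with an unadjusted p-value under 0.05 (edgeR) was B2m, the light chain of class I molecules. B2m had 1249, 2163 and 1379 CPM in WT and 1179, 1231 and 1196 CPM in ΔrsCBE. The groups did not overlap, which held for 16.1% of all tested genes. WT replicate 1 and ΔrsCBE replicate 2 were close, though, and WT replicate 2 stood far above the others. Its estimate was the lowest of the list, -0.40 ± 0.17 (SE; adjusted p = 0.447 by edgeR), and in the fit without a count filter it was past the threshold (log2 fold change -0.38, adjusted p = 0.0265 by edgeR). The highest estimate was that of Erap1, which trims peptides (0.18, standard error 0.19). Of 15 interferon-stimulated genes 2 were tested and 0 were past the threshold, against 1.69% of all tested genes. The list summed to 248 to 363 CPM in WT and 248 to 356 CPM in ΔrsCBE.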

How the data were processed

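RNA was taken from sorted pre-B cells, depleted of ribosomal RNA and made into libraries with a stranded total RNA kit, per the labels' protocols. The authors deposited whole-number read counts per gene symbol, not normalized, with 1 column per library. The submitters' processing notes name Trim Galore 0.6.10, STAR 2.7.11, HTSeq, DESeq2 and the mm10 build. The annotation, the strand setting and the treatment of reads with several matches are not given in the sources used here. Totals were 428106 to 1300805 counts per library, and low counts limit precision.

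Counts were tested with edgeR 4.0.16 in R 4.3.3: filterByExpr (minimum count 10), TMM scaling, glmQLFit with robust estimation and genotype as the only factor, glmQLFTest, and Benjamini-Hochberg adjustment over all 7792 tested genes with a threshold of 0.05. Standard errors derive from the F statistic, and 95% intervals use its degrees of freedom. The fit was tested on simulated data. Replicates of a group differed beyond Poisson noise, with a chi-square statistic of 1.78 to 1.84 for each degree of freedom in WT. In ΔrsCBE it was 1.79 for replicates 2 and 3, and 3.18 and 2.52 for replicate 1 with replicates 2 and 3. No library was counted as a repeat of another, but such an excess does not show that libraries came from separate animals. Exon lengths and coordinates come from GENCODE M21 on GRCm38, the mm10 build, and all 51 genes matched, Psme3ip1 by its older symbol Fam192a. Copies were found with BLAST 2.17.0, and start windows come from RefSeq.

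Named with a value in each library are the 6 catalytic subunits, the tested genes with the highest and lowest log2 fold change of each class and the highest level per length. The classes follow textbook roles. The genes, lists and rules were chosen with earlier results of these data known, and the motifs, the copy search and the values of Psmd3, Psmd9 and Psme4 were chosen after seeing the data. Alternatives were other scalings, DESeq2 1.42.0, other filters, a threshold of 0.1, each library left out, a replicate block and a sex covariate.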

Additional observations from a re-analysis of the deposited data

How the results depend on the processing

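The count of 0 proteasome genes and of 0 partner genes held under all 14 alternatives, and the smallest adjusted p-value of a proteasome gene in any of them was 0.196 (edgeR, Psmc6 without ΔrsCBE replicate 1). The count of antigen processing genes was 0 in 13 alternatives and 1 (B2m) with no count filter, and the cause was not tested. The median log2 fold change of the tested proteasome genes lay between 0.003 and 0.09. Replicate numbers are shared between genotypes, but same-numbered libraries deviated together with correlations of only 0.009 to 0.02. With the replicate block 0 proteasome genes and 136 of all genes were called, against 132 without it. Over all genes the count was 87 with the sex covariate, where ΔrsCBE replicate 1 is the only male-pattern library of its genotype, and between 59 and 187 with 1 library left out. It was 59 without WT replicate 3 and also without ΔrsCBE replicate 3. Estimates of the 19 tested genes named by rule were followed, and some changed sign, none past the threshold. With the sex covariate those were Psmb8 (0.24), Psmc5 (-0.14), Psmd5 (-0.36) and Psme3ip1 (0.18). With 1 library left out, estimates ranged from -0.18 to 0.15 (Psma6), -0.0449 to 0.34 (Psmb4), -0.0027 to 0.31 (Psmb6), -0.31 to 0.0551 (Psmb7), -0.24 to 0.0354 (Psmb8), -0.20 to 0.0187 (Psme3ip1) and -0.0036 to 0.34 (Psmf1). The difference in the Psmb8 to Psmb5 ratio was 0.022 with a prior count of 0.5 and -0.81 to 0.30 with 1 library left out, and that of Psmb9 to Psmb6 was -0.18 to 0.67. The depth of 12 to 49 counts limits the 11 detected genes below the filter.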

Other observations

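In WT replicate 2, the library with the fewest counts, genes that act with the immunoproteasome were often at their highest, a pattern noticed in the data. Of the 13 antigen processing genes, 7 had their highest CPM of all 6 libraries in WT replicate 2 (Tap1, B2m, Nlrc5, Irf1, Calr, Canx and Pdia3), against 22.2% of all tested genes. Irf1, a transcription factor that induces immunoproteasome genes, had 161, 262 and 153 CPM in WT and 188, 143 and 148 CPM in ΔrsCBE. Nlrc5, the class I transactivator, had 149, 245 and 196 CPM in WT and 166, 168 and 168 CPM in ΔrsCBE. Psme1 was highest there too, at 434 CPM, while Psmb8, Psmb9 and Psmb10 were highest in ΔrsCBE replicate 1. Of the 38 tested proteasome genes, 4 had their highest value in WT replicate 2.

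Of the 28 tested partner genes the ranges of 5 did not overlap, against 16.1% of all tested genes: Pomp, Ecpas and Nfe2l1 were lower in ΔrsCBE, and Uchl5 and Ddi2 higher. These were named after their values were seen. Nfe2l1, a regulator of proteasome transcription, had 151, 169 and 126 CPM in WT and 121, 119 and 118 CPM in ΔrsCBE (log2 fold change -0.28, standard error 0.16). Ddi2, the protease that activates its product, had 71.4, 68.7 and 67.3 CPM in WT and 84.7, 85.8 and 101 CPM in ΔrsCBE (log2 fold change 0.39, standard error 0.18). Neither was past the threshold, with edgeR adjusted p-values of 0.585 and 0.458.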
